A study of Mus musculus with 25 samples.

Results

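Excitation-contraction coupling genes were followed as a group of 10 named members, namely Ryr1, Cacna1s, Cacnb1, Cacng1, Jph1, Jph2, Trdn, Stim1, Jsrp1 and Sln. The rule is this list of names, and all 10 were present among the 8829 genes of the deposited table. The messenger RNA came from the gastrocnemius, a mixed and mostly fast calf muscle, of 25 male SAMP8 mice, an inbred strain with accelerated senescence that carries no transgene here. From 8 months of age, 14 mice were gavaged with thymol, a monoterpenoid phenol of thyme and oregano, dissolved in corn oil (Thymol, a daily dose of 20 mg/kg, on 5 days a week), and 11 mice were given the vehicle (Control). The labels give 3 months of treatment and the study's methods give 12 weeks. Each mouse had its own QuantSeq library, in which reads come from the 3′ end of polyadenylated RNA. Mice are named by the number that ends their label.

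Excitation-contraction coupling turns an action potential of the muscle fibre into calcium release. In the triad, a transverse tubule lies between terminal cisternae of the sarcoplasmic reticulum. The voltage sensor in the tubule touches the release channel in the reticulum, so that depolarization opens the channel without a need for calcium influx. Junctophilins hold the membranes together, triadin and related proteins tie the channel to the calcium store, and pumps then return calcium to the store under the control of small peptides.

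Among the members, Sln encodes sarcolipin, one of the small membrane peptides that bind the sarcoplasmic reticulum calcium pump and lower its calcium uptake. Mrln encodes myoregulin, another peptide of that kind. Their open reading frames are shown because Sln was the member with the largest spread between mice and Mrln, at a far steadier level, is the peptide regulator to set beside it. Both were read from the GRCm38 reference with the GENCODE M21 annotation, each within 1 coding exon on the plus strand, and the capitals mark the start and stop codons.
Sln, chr9:53853473-53853565 without the stop codon, 31 codons: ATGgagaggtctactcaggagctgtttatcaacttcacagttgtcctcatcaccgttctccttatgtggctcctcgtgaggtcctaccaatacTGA
Mrln, chr10:70219496-70219633 without the stop codon, 46 codons: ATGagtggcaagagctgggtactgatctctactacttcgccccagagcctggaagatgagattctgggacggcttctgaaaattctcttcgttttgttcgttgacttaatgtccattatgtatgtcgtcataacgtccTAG
The reading frame of Sln is 96 bases long and that of Mrln 141 bases long, stop codon included.

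Depth on the genes of the table ranged from 4463818 to 9463418 reads per mouse, with a median of 7503259. Values are log2 CPM, where CPM is the reads of a gene relative to the size of its library after the authors' TMM scaling, and 0 reads corresponds to -1.90. Since 3′ counting is meant to give about 1 read position per transcript whatever its length, levels of different genes are compared on this CPM scale without length scaling. Whether this holds for each gene was not checked. Control 18 had the highest leukocyte and fibroblast marker levels of the 25 mice (mean log2 CPM of 5.71 and 8.05), and Thymol 20 had the lowest slow-fibre level (2.84, against 6.54 to 9.53 in the Control mice). The labelled muscle was checked with fibre markers. Myh4, the myosin of fast glycolytic fibres, had a mean level of 15.04 log2 CPM and Myh7, that of slow fibres, 7.99, and each of the 8 fast and 8 slow markers in the table had reads in all 25 mice. In bulk muscle, fewer cells of a type and less RNA per cell cannot be told apart.

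The release channel and its anchor stood far above the other members. Ryr1, the ryanodine receptor of skeletal muscle and the calcium release channel itself (ENSMUSG00000030592, chr7:29003344-29125179, minus strand), had 12744 to 25671 reads per mouse and a mean level of 11.32 log2 CPM, or 2576.1 CPM. Trdn, which encodes triadin, a membrane protein that links the channel to calsequestrin (ENSMUSG00000019787, chr10:33080554-33476709, plus strand), was higher still, with 33950 to 86128 reads and 12.83 log2 CPM, or 7338.3 CPM. These levels placed Trdn at rank 19 and Ryr1 at rank 29 of the 8829 genes. Trdn exceeded Ryr1 in 25 of 25 mice, by 2.84-fold on average (SD of the log2 ratio 0.22). Jsrp1, which encodes the junctional protein JP-45 that binds the voltage sensor and calsequestrin (ENSMUSG00000020216, chr10:80808496-80813498, minus strand), had 8.39 log2 CPM from 1363 to 3483 reads. Trdn spans 8 other annotated genes and Ryr1 spans 4, and the strand setting of the counting is not given in the sources used here.

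The voltage sensor was measured through the genes of 3 of its subunits. Cacna1s, the pore-forming subunit of the dihydropyridine receptor (ENSMUSG00000026407, chr1:136052750-136119822, plus strand), had 8.17 log2 CPM and 1358 to 2707 reads. Cacnb1, the cytosolic beta subunit (ENSMUSG00000020882, chr11:98001508-98023034, minus strand), had 6.67 log2 CPM and 487 to 1035 reads. Cacng1, the gamma subunit (ENSMUSG00000020722, chr11:107703218-107716522, minus strand), had 8.55 log2 CPM and 1928 to 4456 reads. The subunit transcripts therefore differed in level, with Cacna1s above Cacnb1 by 2.82-fold in 25 of 25 mice and Cacng1 above Cacna1s by 1.30-fold in 23 of 25. Ryr1 exceeded Cacna1s by 8.90-fold, and the log2 ratio of channel to sensor varied little between mice (SD 0.15, from 2.77 to 3.38). The 3′ end of Cacna1s overlaps Gm37759 on the other strand.

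The junctophilins and the calcium sensor of the store made up the rest of the structural members. Jph1, the junctophilin typical of skeletal muscle (ENSMUSG00000042686, chr1:16964560-17097889, minus strand), had 8.59 log2 CPM and 1763 to 4412 reads, and its 3′ end overlaps Gm28376 on the other strand. Jph2, the junctophilin shared with the heart (ENSMUSG00000017817, chr2:163336242-163397993, minus strand), had 8.34 log2 CPM and 1442 to 3651 reads. Jph1 exceeded Jph2 in 23 of 25 mice, by 1.19-fold on average. Stim1, which senses calcium in the store and opens store-operated entry (ENSMUSG00000030987, chr7:102267806-102437319, plus strand), had 7.29 log2 CPM and 678 to 1485 reads.

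Sln (ENSMUSG00000042045, chr9:53850164-53854560, plus strand) was the exception in both level and spread. It had a mean of 3.15 log2 CPM, and its reads ranged from 8 in Control 31 to 533 in Control 19. On the CPM scale the highest mouse exceeded the lowest by 63.2-fold, whereas the same ratio was 1.41 to 1.89 for the other 9 members. The expected counting SD of Sln was 0.242 on the log2 scale, below its SD within groups of 1.55. Atp2a1, the fast-fibre calcium pump that sarcolipin binds, exceeded Sln by 1261.8-fold on average, and Mrln exceeded it by 11.89-fold, both in 25 of 25 mice. The lowest log2 ratio of Mrln to Sln was 0.86 and the highest 6.85.

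In order of level, the members ran Trdn, Ryr1, Jph1, Cacng1, Jsrp1, Jph2, Cacna1s, Stim1, Cacnb1 and Sln. Some neighbours in this order were separated in every mouse, namely Trdn and Ryr1, Ryr1 and Jph1 (6.64-fold), Cacna1s and Stim1 (1.85-fold), Stim1 and Cacnb1 (1.53-fold), and Cacnb1 and Sln (11.52-fold). Neighbours among the 5 genes from Jph1 to Cacna1s were not separated in every mouse. Jph1 was above Cacng1 in 16 of 25 mice, Cacng1 above Jsrp1 in 20, Jsrp1 above Jph2 in 14 and Jph2 above Cacna1s in 16. Genes further apart in this stretch were better separated, with Jph1 above Cacna1s in 25 of 25 mice and Jsrp1 above Cacna1s in 24.

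**Figure D1:**
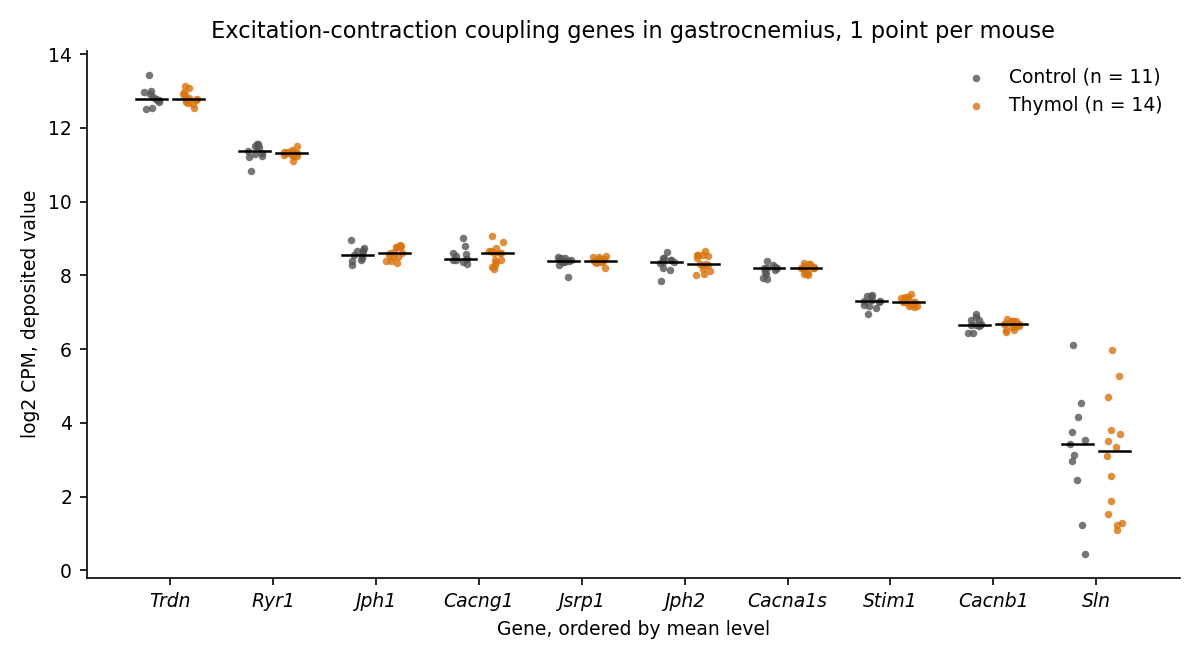
Deposited log2 CPM of the 10 members (y axis) with genes ordered by mean level (x axis), 1 point per mouse for Control (grey, n = 11) and Thymol (orange, n = 14), and a black line at each group's median. The groups overlapped for every gene, and Sln spread from 0.45 to 6.12 while the other 9 genes stayed in narrow bands.

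The spread between mice set the members apart from each other. Jsrp1 had an SD within groups of 0.12 on the log2 scale, and 2.2% of all genes had a smaller one. Cacna1s (SD 0.12, 2.8% of genes smaller), Stim1 (0.13, 4.1%) and Cacnb1 (0.13, 4.2%) were nearly as steady. Ryr1 (0.16, 12%) and Jph1 (0.18, 18%) followed. Trdn (0.21, 28.8%), Jph2 (0.21, 29.4%) and Cacng1 (0.24, 38.2%) varied more. Only Sln lay at the other end, with 99.8% of genes below it. Each SD was larger than the counting SD of its gene, which ran from 0.00628 for Trdn to 0.0529 for Cacnb1 among the 9 steadier members.

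Whether thymol changed the transcripts of this machinery was asked by comparing the 14 Thymol with the 11 Control mice. No member passed the test, and the estimates of 9 of the 10 had narrow intervals around 0. Of all 8829 genes, 0 passed an adjusted p under 0.05 (limma with a mean-variance trend, two-sided, Benjamini-Hochberg over all genes; 0% of genes, smallest adjusted p = 0.741), and 0 of the 10 members did. At an unadjusted p under 0.05, 1.83% of all genes were higher and 1.7% lower in Thymol, against 0 of the 10 members in either direction. Each member had an adjusted p of 1. Among marker genes of other cells and fibre types, likewise 0 passed the adjusted threshold. At an unadjusted p under 0.05 (limma), 1 of 7 endothelial and 1 of 5 nerve and Schwann cell markers were lower in Thymol. No marker of the other lists had one in either direction. Estimates lay below 0 for 8 of 8 slow-fibre markers (median log2 fold change -0.26, median SE 0.56). The same held for 5 of 5 nerve and Schwann cell markers (-0.31, SE 0.21). It also held for 6 of 7 endothelial (-0.08, SE 0.11) and 5 of 6 fibroblast markers (-0.15, SE 0.22). In other lists, 2 of 8 fast glycolytic, 2 of 7 denervation, 3 of 6 adipocyte and 5 of 8 leukocyte markers lay below 0. Over all genes, 4454 of 8829 did. Mean slow-fibre level was 2.84 in the lowest Thymol mouse, against a median of 7.70 in Thymol and 8.23 in Control. That lowest mouse was Thymol 20. The other Thymol mice ran from 6.02 to 9.87, against 6.54 to 9.53 in Control. The group means of 7.76 in Thymol and 8.02 in Control include Thymol 20. Whether the slow-fibre estimates stay below 0 without that mouse was not tested.

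Ryr1 ranged in Control from 10.82 to 11.56 log2 CPM with a median of 11.37, and in Thymol from 11.09 to 11.50 with a median of 11.32. The groups overlapped, with 2 of 14 Thymol mice above the Control median. The limma log2 fold change (Thymol minus Control) of Ryr1 was -0.04 (SE 0.07, 95% interval -0.17 to 0.09, p = 0.533 unadjusted), and -0.09 without Control 14, the lowest mouse. Trdn ranged from 12.52 to 13.44 with a median of 12.77 in Control, and from 12.55 to 13.14 with a median of 12.78 in Thymol. The highest Trdn value was that of Control 18, and the log2 fold change was -0.02 (SE 0.08, -0.19 to 0.15, limma p = 0.833). Without Control 18 it was 0.04, of the other sign.

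Jsrp1 lay between 7.95 and 8.49 in Control (median 8.40) and between 8.20 and 8.53 in Thymol (median 8.40). Its log2 fold change was 0.04 (SE 0.05, -0.06 to 0.15, limma p = 0.406), with Control 18 again at the extreme, here as the lowest mouse. Cacna1s lay between 7.91 and 8.40 in Control (median 8.19) and between 8.02 and 8.33 in Thymol (median 8.21). Cacnb1 lay between 6.45 and 6.94 (median 6.66) and between 6.47 and 6.82 (median 6.68), in the same order. For these subunits the Thymol range fell inside the Control range, and the log2 fold changes were 0.04 for Cacna1s (SE 0.05, -0.07 to 0.14) and -0.03 for Cacnb1 (SE 0.06, -0.14 to 0.09). Cacng1 lay between 8.30 and 9.01 in Control (median 8.45) and between 8.17 and 9.07 in Thymol (median 8.60), with the highest values in Thymol 16 and Control 19. Its log2 fold change was 0.01 (SE 0.09, -0.17 to 0.19).

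Jph1 lay between 8.28 and 8.97 in Control (median 8.56) and between 8.34 and 8.81 in Thymol (median 8.61). Jph2 lay between 7.85 and 8.63 in Control (median 8.36) and between 8.00 and 8.66 in Thymol (median 8.32). Both junctophilins were lowest in Control 14, and both groups overlapped over most of their range, with log2 fold changes of 0.02 for Jph1 (SE 0.07, -0.12 to 0.16) and 0.01 for Jph2 (SE 0.08, -0.15 to 0.17). Stim1 lay between 6.94 and 7.47 in Control (median 7.30) and between 7.15 and 7.49 in Thymol (median 7.29), with Control 18 lowest. Its log2 fold change was 0.03 (SE 0.06, -0.09 to 0.14).

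Sln lay between 0.45 and 6.12 log2 CPM in Control (median 3.42) and between 1.09 and 5.98 in Thymol (median 3.23). High and low mice occurred in both groups, with 533 reads in Control 19, 519 in Thymol 16 and 282 in Thymol 30, and with 8 reads in Control 31, 11 in Thymol 3 and 15 in Thymol 34. The log2 fold change was -0.18 (SE 0.55, -1.31 to 0.94, limma p = 0.741), and it was 0.10 without Control 19. The intervals of the 9 other members covered folds of 0.88 to 1.14 at the widest, while that of Sln covered folds of 0.40 to 1.92.

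**Figure D2:**
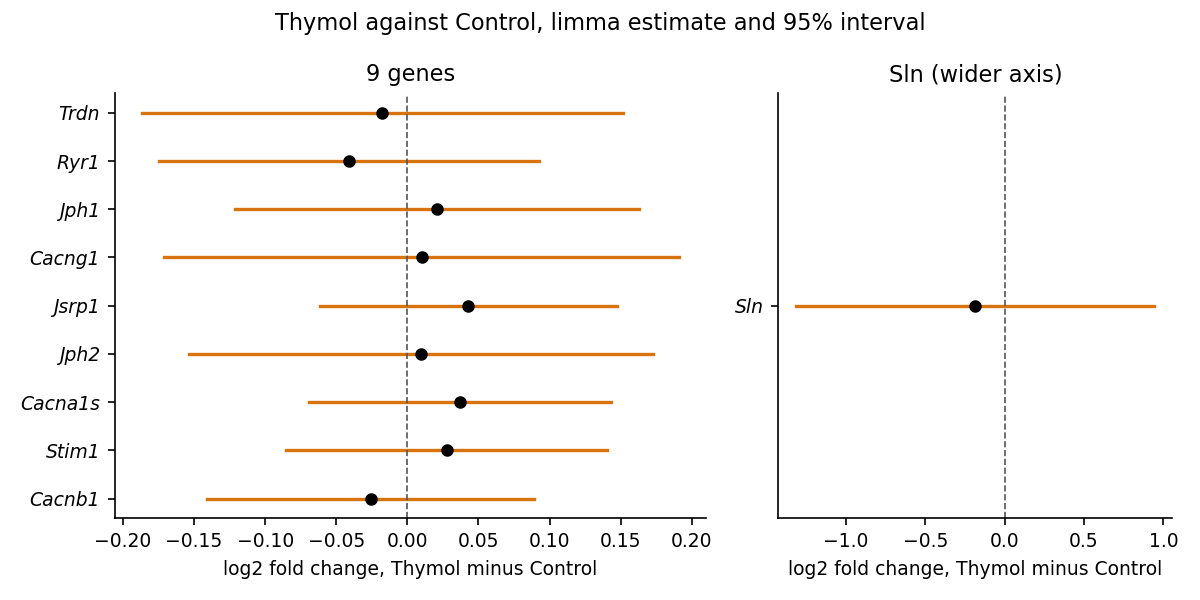
Limma log2 fold change, Thymol minus Control (x axis), for each member (y axis), with points at the estimate and lines over the 95% interval; Sln has its own panel with a wider axis. Every interval includes 0, and that of Sln runs from -1.31 to 0.94.

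The SD of several members was larger among the Control than among the Thymol mice, in part through single mice. The SD of Ryr1 was 0.22 in Control and 0.09 in Thymol, and 0.14 in Control without Control 14. The SD of Jsrp1 was 0.15 in Control and 0.08 in Thymol, but 0.06 in Control without Control 18. For Trdn it was 0.25 and 0.17, and 0.16 in Control without Control 18. For Stim1 it was 0.16 and 0.10, and 0.12 in Control without Control 18. The SD was larger in Control for 7 of 10 members, against 57.8% of all genes. Without Control 18 it was larger in Control for 7 of 10 members against 52.6% of genes, with Jsrp1 and Trdn no longer among them and Jph2 and Sln added, and without Control 14 for 8 of 10 against 56.4%. The difference in spread was not tested.

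The wider pathway was described with 8 lists holding 71 other genes of coupling, of which 62 were in the table. Of these 62, 38 had an estimate above 0 and 24 below (61.3% above, against 49.6% of all genes), 0 passed the adjusted threshold and 1 passed the unadjusted one (limma), and the median log2 fold change was 0.01, against -0.00 over all genes. The exception was Orai3, one of the channels of store-operated calcium entry, at 3.70 ± 0.22 log2 CPM in the 11 Control mice and 3.46 ± 0.27 in the 14 Thymol mice (mean ± SD). Its log2 fold change was -0.23 (SE 0.11, limma p = 0.0334 unadjusted, adjusted p = 1), from 58 to 129 reads per mouse, with 2 of 14 Thymol mice above the Control median. No pathway gene passed the unadjusted threshold in 4 of the 25 fits that left out 1 mouse (Control 10, Control 27, Thymol 9 or Thymol 34), and 2 passed without Control 18 or Thymol 26. Orai3 was 1 of 5 measured genes of store-operated entry, of which 2 had estimates above 0 and 3 below. Saraf, which slows that entry and had the highest level of the list, was at 6.93 ± 0.16 in Control and 6.87 ± 0.13 in Thymol (SD).

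Among partners of the voltage sensor, 2 of 3 measured genes had estimates above 0, and Cacna2d1, its extracellular alpha-2/delta subunit, was at 8.37 ± 0.21 and 8.42 ± 0.11 (SD, Control and Thymol). Among the channels and pumps that make the membrane excitable, 8 of 10 had estimates above 0. Partners of the release channel were balanced, with 7 of 15 above 0. For triad and tubule structure the estimates of 11 of 13 genes lay above 0, with a median of 0.03. Tmem38a, which encodes the TRIC-A cation channel of the reticulum, led that list in level with 9.21 ± 0.19 in Control and 9.34 ± 0.20 in Thymol (log2 fold change 0.12, SE 0.07, limma p = 0.106 unadjusted).

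Of the calcium store, 3 of 5 genes had estimates above 0, and Casq1, the fast-fibre calsequestrin, was at 10.08 ± 0.20 and 10.05 ± 0.17 (SD, Control and Thymol). Ryr1 exceeded Casq1 in 25 of 25 mice. Of the calcium pumps and their peptide regulators, 1 of 5 genes lay above 0, with a median of -0.08, and Atp2a1 was at 13.38 ± 0.17 and 13.37 ± 0.17. Of the cytosolic buffer and mitochondrial uptake, 4 of 6 lay above 0, and Pvalb, the calcium buffer parvalbumin, was at 13.39 ± 0.20 and 13.38 ± 0.22. No gene of these lists passed the adjusted threshold.

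**Figure D3:**
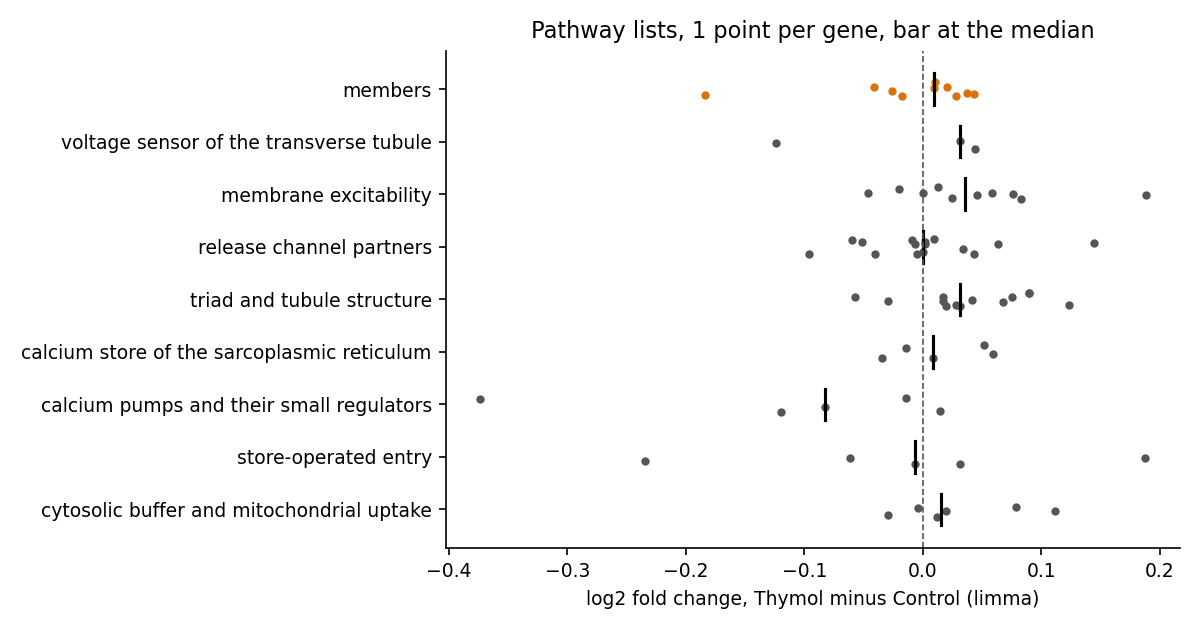
Limma log2 fold change, Thymol minus Control (x axis), of each measured gene of the members (orange) and of the 8 pathway lists (grey), 1 row per list with a black bar at its median. The list medians run from -0.08 for the calcium pumps and their regulators to 0.04 for membrane excitability, and 0 genes passed the adjusted threshold.

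Co-variation of the members across the 25 mice was described by the 45 pairs of members. No pair passed an adjusted p under 0.05 (two-sided permutation test of Pearson r with 100000 resamples, Benjamini-Hochberg over 45 pairs; smallest adjusted p = 0.141), although 12 had an unadjusted p under 0.05. The mice share the preparation, the normalization and unequal depth, and the r of each member with depth was at most 0.32 in size. Of the pairs, 12 had an r of at least 0.4 in size (26.7%), against 6.86% of all 38971206 pairs of genes in the table, a limit chosen after the values were seen. The r was positive for 35 of 45 pairs (77.8%, median 0.22), against 49.8% of all pairs (median -0.00). These shares are a description, since pairs with a gene in common are not independent.

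Within the voltage sensor, Cacna1s and Cacnb1 had an r of 0.45 (rho 0.46), and the sensor and the release channel, Cacna1s and Ryr1, had 0.42 (rho 0.46). Cacnb1 and Stim1 had an r of 0.51 (rho 0.52). Both junctophilins had an r of 0.46 with each other (rho 0.47). Jph1 had an r of 0.50 with Cacng1, 0.44 with Jsrp1 and 0.43 with Ryr1. The adjusted permutation p of the 12 pairs was 0.141 to 0.171 for r. The pairs named so far had a positive r within each group, from 0.07 for Ryr1 with Jph1 in Thymol to 0.72 for Cacng1 with Jph1 in Control. Some of them also shrank without 1 mouse. Without Control 14 the r was 0.26 for Ryr1 with Jph1 and 0.34 for Jph1 with Jph2. For Cacna1s with Cacnb1 it was 0.34 without Control 10.

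Other pairs depended more strongly on 1 mouse, or on the measure used. Trdn and Stim1 had the most negative r of the members, -0.55 (rho -0.42), and -0.30 without Control 18, where Trdn was highest and Stim1 lowest. Stim1 and Jsrp1, both lowest in Control 18, had an r of 0.47 (rho 0.15), and 0.06 without that mouse. Cacng1 and Jsrp1 had an r of 0.45 but a Spearman rho of 0.72, which passed the threshold (permutation test, adjusted p = 0.00405 over 45 pairs). Without Control 18, 3 pairs passed, namely Cacnb1 with Stim1 (r = 0.63), Cacng1 with Jsrp1 (0.61) and Jph1 with Trdn (0.64), each with an adjusted p of 0.021 by the permutation test.

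**Figure D4:**
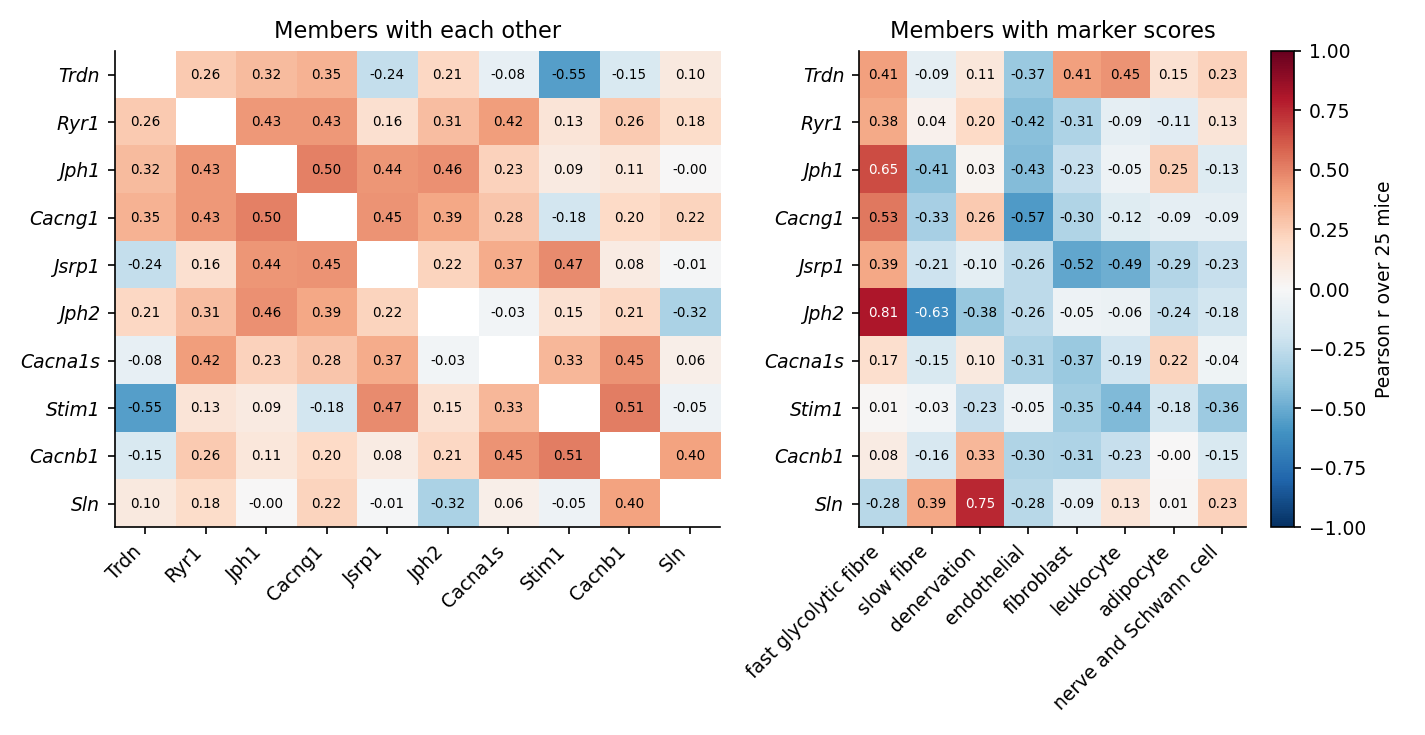
Pearson r over 25 mice of each member with each other member (left) and with the mean log2 CPM of 8 marker lists (right), coloured from -1 (blue) to 1 (red). The strongest cells are Jph2 with the fast glycolytic score (0.81), Sln with the denervation score (0.75) and Jph1 with the fast glycolytic score (0.65).

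The members were then set beside marker lists of fibre types, denervation and other cells of the tissue, each scored as the mean log2 CPM of its measured genes. Of 80 relations, 5 passed an adjusted p under 0.05 (two-sided permutation test with 100000 resamples, Benjamini-Hochberg over 80 relations). Jph2 was higher in mice with more fast glycolytic and less slow-fibre marker RNA, Jph1 was higher with the fast markers, Sln was higher with the denervation markers and Cacng1 was lower with the endothelial markers. The part of fibre or cell composition in these relations was not tested.

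Jph2 and the fast glycolytic score had an r of 0.81 (permutation p = 1.00e-05, the smallest it can give, adjusted p = 0.0004) and a rho of 0.74 (permutation p = 4.00e-05). The r was 0.74 without the 2 mice farthest from the median score, and 0.81 within Control and 0.81 within Thymol. Jph2 had a positive r with 8 of 8 fast markers, from 0.29 for Pgam2 to 0.74 for Mybpc2, a myosin binding protein of fast fibres. With the slow-fibre score, Jph2 had an r of -0.63 (permutation p = 0.0007, adjusted p = 0.014) and a rho of -0.63 (permutation p = 0.00087). The size grew to -0.69 without the 2 farthest mice, one of them Thymol 20, and the r was -0.46 in Control and -0.73 in Thymol. All 8 slow markers had a negative r with Jph2, from -0.78 for Myoz2 to -0.58 for Myh7, the slow myosin heavy chain.

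Jph1 and the fast glycolytic score had an r of 0.65 (permutation p = 0.00046, adjusted p = 0.0123) and a rho of 0.62 (permutation p = 0.00123), with 0.66 in Control and 0.65 in Thymol. Without the 2 farthest mice the r was 0.50, and without Control 14 it was 0.58, and neither passed the adjusted threshold. The single markers were uneven, with 0.81 for Actn3, 0.77 for Myh4 and 0.73 for Mybpc2 but -0.22 for Pgam2. With the slow-fibre score Jph1 had an r of -0.41, which did not pass. Spearman rho with the fast score also passed for Cacng1 (0.60, permutation test, adjusted p = 0.0211) and Jsrp1 (0.62, permutation test, adjusted p = 0.0197).

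Sln and the denervation score had an r of 0.75 (permutation p = 1.00e-05, adjusted p = 0.0004) and a rho of 0.73 (permutation p = 7.00e-05). The denervation list holds genes known to rise in fibres that lose their nerve, such as subunits of the acetylcholine receptor, and 7 of its 10 genes were in the table. The r was 0.59 in Control and 0.87 in Thymol, and 0.61 without the 2 mice with the most extreme scores. All 7 markers had a positive r with Sln, from 0.10 for Myog to 0.64 for Chrna1, the receptor's alpha subunit. Control 19 and Thymol 16, where Sln was highest, also had the highest denervation scores of their groups (3.87 and 3.93). Sln had an r of 0.39 with the slow-fibre score, which did not pass the threshold, and a rho of 0.58, which did (permutation test, adjusted p = 0.0319). The r was 0.61 without Thymol 20 (permutation test, adjusted p = 0.0314) and 0.63 without the 2 farthest mice (permutation test, adjusted p = 0.0408). The groups overlapped in both scores, at 3.10 ± 0.33 in Control and 3.15 ± 0.38 in Thymol for denervation and at 8.02 ± 0.90 and 7.76 ± 1.82 for slow fibre (mean ± SD). No gene of either list had an unadjusted p under 0.05 between the groups (limma).

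Cacng1 and the endothelial score had an r of -0.57 (permutation p = 0.0028, adjusted p = 0.0448) and a rho of -0.59 (permutation p = 0.00263). The r was -0.72 in Control and -0.52 in Thymol, and -0.55 without the 2 farthest mice, where it did not pass the adjusted threshold. It also did not pass with quantile normalization (adjusted p = 0.081, permutation test) or with each library centred on its median (adjusted p = 0.0579, permutation test). Of the 7 endothelial markers, 1 had a positive r with Cacng1 (Tie1, 0.03). An r of at least 0.4 in size was found for 2 of the 7, Emcn (-0.65) and Pecam1 (-0.43). Across the 10 members, the median r was 0.39 with the fast glycolytic score (-0.00 over all genes), -0.31 with the endothelial score (0.00) and -0.31 with the fibroblast score (-0.01). An r of at least 0.4 in size with the fast score was found for 4 of 10 members and 13.5% of all genes. With the slow-fibre score it was found for 2 of 10 members against 9.8%, and with the denervation score for 1 of 10 against 7.9%. With the endothelial score it was found for 3 of 10 members against 6.7%. With the adipocyte score and with the nerve and Schwann cell score it was found for 0 of 10 members, against 8.8% and 5.0% of all genes. How often other genes would pass the adjusted threshold with these scores was not tested.

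Relations with leukocyte and fibroblast markers did not pass over the 25 mice and depended on single mice. Jsrp1 had an r of -0.49 with the leukocyte score and -0.52 with the fibroblast score. Without Control 18 these were -0.18 and -0.13, while without Thymol 20 the r of Jsrp1 with the leukocyte score was -0.62 and passed (permutation test, adjusted p = 0.032). Trdn had an r of 0.45 with the leukocyte score, and 0.20 without Control 18. Stim1 had -0.44 with it, and -0.23 without that mouse. With the fibroblast score Trdn had an r of 0.41, and 0.06 without Control 18. Over all 25 mice the adjusted permutation p of these relations was 0.143 to 0.25.

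**Figure D5:**
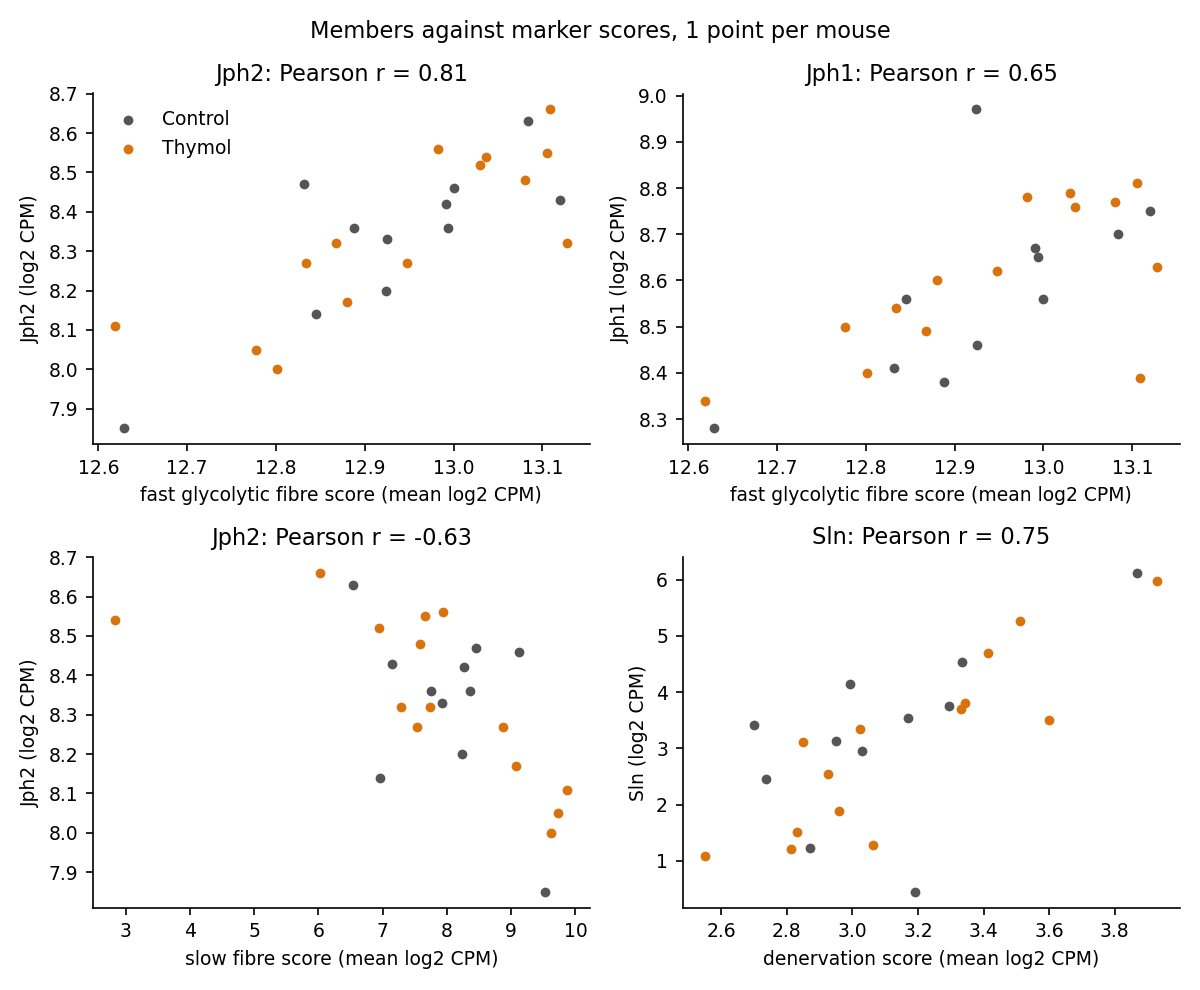
Log2 CPM of a member (y axis) against a marker score, the mean log2 CPM of its listed genes (x axis), 1 point per mouse for Control (grey, n = 11) and Thymol (orange, n = 14), in 4 panels. Jph2 (r = 0.81) and Jph1 (r = 0.65) rise with the fast glycolytic score, Jph2 falls with the slow-fibre score (r = -0.63) with Thymol 20 at the far left, and Sln rises with the denervation score (r = 0.75).

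The genes most like each member across the 25 mice were named by the highest Pearson r among the genes outside the member list, as a description with no test. Jph1 was most like Synm, which encodes the intermediate filament protein synemin (0.83), Actn3, the alpha-actinin of fast fibres (0.81), and Fxr1 (0.77). Jph2 was most like Drap1 (0.81), Camk2a (0.80) and Tmem233 (0.80). Ryr1 was most like Dmd, the dystrophin gene (0.78), Sox6, a transcription factor known to repress slow-fibre genes (0.77), and Cmya5 (0.76). With Sox6 the r was 0.89 in Control but 0.40 in Thymol, against 0.86 and 0.68 with Dmd and 0.81 and 0.74 with Cmya5. Cacna1s was most like Ndufaf6 (0.80), Tfb2m (0.71) and Zfp651 (0.71), and Cacnb1 was most like Trip10 (0.71), Eed (0.67) and Ptcd2 (0.64). Cacng1 was most like Rtraf (0.74), Mrln (0.73) and Mtss2 (0.70).

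Sln was most like Lmo7 (0.73), Sh3rf2 (0.72) and Amotl1 (0.70). For members at an extreme in Control 18 the likeness shrank without that mouse. Trdn was most like Eif3a (0.84, and 0.77 without Control 18), the nuclear noncoding RNA Malat1 (0.84 and 0.72) and Zc3h15 (0.83 and 0.74). Stim1 was most like Fam53c (0.75 and 0.67), Grsf1 (0.72 and 0.59) and Vdac2 (0.72 and 0.62). Jsrp1 was most like Fam120c (0.83 and 0.58), Ak6 (0.78 and 0.38) and Map2k2 (0.78 and 0.64).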

How the data were processed

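Sequencing reads were aligned by the authors with STAR 2.5.3 (GRCm38, Ensembl 101) and summed over genes by HTSeq 0.6.1. Genes with 30 reads in at least 6 samples were kept, TMM scaling in edgeR was applied, and log2 CPM values were deposited. Library preparation used PCR, and the sources used here mention no molecular identifiers, so counting errors are taken as lower bounds. Whole reads were recovered for 100.0% of values (within 0.01 of a whole number). The deposited log2 values of all genes were fitted with limma 3.58.1 (R 4.3.3), group only, with a mean-variance trend and Benjamini-Hochberg adjustment over 8829 genes, at a threshold of 0.05. Voom on the recovered reads was an alternative. Permutation tests used numpy 2.4.6 and scipy 1.17.1, and the procedures were tested on simulated data. Gene positions are from GENCODE M21. Members and gene lists, written from textbook knowledge, were chosen with earlier results of these data known. All members were named. Of the pathway lists, genes with an unadjusted p under 0.05 and the gene with the highest level in each list were named (for 2 lists that gene is not reported here), and for each member the 3 genes most correlated with it. Alternatives covered normalization, pseudocount, filter, weights, moderation, covariates, correlation measure, groups and each mouse left out. The limit of 0.4 on r and the values without Control 18 or Control 14 for spread and likeness were added after the data were seen.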

Additional observations from a re-analysis of the deposited data

How the results depend on the processing

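Under all 10 alternatives and all 25 fits that each left out 1 mouse, 0 genes had an adjusted p under 0.05 (limma). This held among all genes, the members and the pathway lists. An unadjusted p under 0.05 was found for 287 to 334 genes over the alternatives that kept all 8829 genes. With voom on the recovered reads the number was 304. With only the 75% of genes with the highest mean it was 233 of 6621. With the first number of the label as a replicate block the count past the adjusted threshold was likewise 0 (consensus correlation -0.0364), and no mice share a replicate number that could pair them. Estimates near 0 changed sign. With sample weights the log2 fold change was -0.020 for Jph2, 0.011 for Trdn and 0.052 for Sln. With quantile normalization it was 0.017 for Atp2a1. Over the fits without 1 mouse the log2 fold change ran from -0.030 to 0.057 for Cacng1, -0.0095 to 0.060 for Jph1, -0.039 to 0.0395 for Jph2, -0.049 to 0.043 for Trdn, -0.0050 to 0.048 for Stim1, -0.46 to 0.10 for Sln, -0.043 to 0.0092 for Atp2a1 and -0.033 to 0.026 for Pvalb. Pairs of members past the threshold numbered 0 with Pearson r, 1 with Spearman rho, 1 without the 2 farthest mice (Cacng1 with Jph2) and 0 to 3 without 1 mouse, with 3 without Control 18 and 0 without any other. Relations with marker scores past it numbered 5, then 8 with Spearman rho, 0 in Control mice alone, 3 in Thymol mice alone, and 3 (without Control 14) to 7 (without Thymol 20). Jph2 with both fibre scores and Sln with denervation stayed past the threshold in all 25 leave-one-out fits, Jph1 with the fast score in 24 and Cacng1 with the endothelial score in 13. In Thymol mice alone the r was -0.085 for Stim1 with Jsrp1, 0.10 for Jsrp1 with leukocyte and 0.069 for Jsrp1 with fibroblast markers, and without the 2 farthest mice it was -0.076 for Trdn with fibroblast markers, each opposite in sign to the r over 25 mice. The cause was not tested. Recovered reads carry counting error only, and Sln, with as few as 8 reads, has the least depth of the members.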
